A study of Rattus norvegicus with 12 samples.

Results

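The genes described here encode the enzymes and transporters that oxidise fatty acids in mitochondria and peroxisomes, together with other known targets of the nuclear receptor PPAR-alpha. The list holds 37 gene symbols, and each was matched by name to the non-control probes of a rat oligonucleotide array and represented by its brightest probe. A probe of that name was present for 35 of the 37 genes (all but the acyl-CoA thioesterases Acot1 and Acot2), among 41012 non-control probes. All 35 were tested in every comparison, and all 35 probes were well above background in both RNAs on all 12 arrays. Of the 35, 18 act in mitochondria, 11 in peroxisomes, 2 in both compartments, and 4 at the cell surface, in the cytosol or as secreted proteins. The array's older name Dci stands for Eci1, and its Acaa1 for Acaa1a.

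Liver RNA came from Fischer 344 rats aged 12 weeks, and every array carried a pair of RNAs in different dyes. The pituitary-intact groups, untreated males and untreated females, and the hypophysectomised (pituitary removed) males and females were each represented by pools of 3 or 4 livers, with a separate pool on each of the 2 arrays of a comparison, per the series' design text. Hypophysectomised males were also given growth hormone (GH), either as 1 injection with livers taken 30, 60 or 90 min later (1 pool of 4 livers) or as 2 injections 3 or 4 h apart (1 pool of 5 livers), and that pool served on both arrays. Each of the 6 comparisons had 2 arrays with the dyes exchanged. All GH-treated and all untreated hypophysectomised animals lacked the whole pituitary, so thyroid, adrenal and gonadal drive was removed along with GH. For 1 array of the 1-injection comparison a treatment label omits the hormone while the title names it, and the title was followed.

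Fatty acids are taken up across the cell surface, bound in the cytosol, activated to acyl-CoA and carried into mitochondria as carnitine esters, where each turn of beta-oxidation shortens the chain and feeds electrons to the respiratory chain. Peroxisomes shorten very long and branched chains by a parallel set of enzymes whose first step makes hydrogen peroxide, which catalase removes. PPAR-alpha is the fatty acid-sensing receptor that switches on many of these genes in fasting liver. GH is secreted in pulses by male rats and more evenly by females, and acts on liver largely through the transcription factor STAT5.

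RefSeq promoter windows of build GRCr8 (250 bases before to 50 after the start site) were matched for 31 of the 35 genes. They are shown for 3 genes: Fabp1, the fatty acid binding protein of liver, which alone held the PPAR element searched for, and Hadha and Hadhb, the subunits of the mitochondrial trifunctional protein, which lie head to head and held a STAT5-type match in common. Below are the 250 bases before each start site, written 5′ to 3′ on the gene's own strand, at chr4:104749090-104749339 (plus strand) for Fabp1, chr6:31907551-31907800 (plus strand) for Hadha and chr6:31907501-31907750 (minus strand) for Hadhb. Capitals mark the motif match.
Fabp1: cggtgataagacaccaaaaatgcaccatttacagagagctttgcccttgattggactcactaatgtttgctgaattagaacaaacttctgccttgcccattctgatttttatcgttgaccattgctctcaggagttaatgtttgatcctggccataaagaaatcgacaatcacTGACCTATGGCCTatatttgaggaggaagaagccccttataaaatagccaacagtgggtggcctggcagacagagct
Hadha: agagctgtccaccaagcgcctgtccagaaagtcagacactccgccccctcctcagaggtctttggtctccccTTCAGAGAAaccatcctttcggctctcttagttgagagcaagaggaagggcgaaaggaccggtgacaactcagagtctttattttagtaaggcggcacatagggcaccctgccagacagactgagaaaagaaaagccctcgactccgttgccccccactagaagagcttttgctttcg
Hadhb: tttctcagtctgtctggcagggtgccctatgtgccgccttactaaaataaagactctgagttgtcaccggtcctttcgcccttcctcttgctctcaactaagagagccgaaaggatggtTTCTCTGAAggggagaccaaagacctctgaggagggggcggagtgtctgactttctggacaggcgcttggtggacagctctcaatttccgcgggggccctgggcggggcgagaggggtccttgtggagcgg

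The PPAR element was searched on both strands of the full window as a direct repeat, AGGNCA followed by 1 base of any kind and AGGNCA again. It was present in 1 of 31 member windows (3.23%) and in 139 of 33469 windows of all genes (0.415%), and the Fabp1 match lies on the minus strand at position -77 from the start site. The STAT5-type motif was searched as TTCNNNGAA, which reads the same on both strands. It was present in Hadha, Hadhb and the carnitine acetyltransferase gene Crat, 3 of 31 windows (9.68%), against 8.87% of all windows. The Hadha and Hadhb windows share 200 bases, and the match in both is the same 9-base stretch read from opposite strands. These matches describe the letters in a short window and were not tested for binding.

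Values are log2 ratios with the RNA named first as the numerator. They are given for array 1 and array 2 and then as the fitted ratio ± SE from limma. Each comparison had n = 2 arrays, but the SE came from a single model of all arrays with a dye term. The SE is therefore not the spread of the 2 arrays printed beside it. A gene was called when its Benjamini-Hochberg adjusted p, over all probes tested in that comparison, was under 0.05, and "rose", "fell", "higher" and "lower" are used of called genes. Across all probes the 2 arrays of a comparison correlated with Pearson's r of 0.618 to 0.867 in 5 comparisons, but 0.0811 for hypophysectomised males against hypophysectomised females. In the 4 comparisons without GH, array 1 was always on 1 slide and array 2 on another, so the per-array values are also the within-slide values. All 4 GH arrays shared another slide, so slide and GH comparison cannot be told apart. All 10 hepatocyte markers tested were well above background on every array. The spread measured is that between these arrays, which for GH holds no variation between GH-treated pools.

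**Figure D1:**
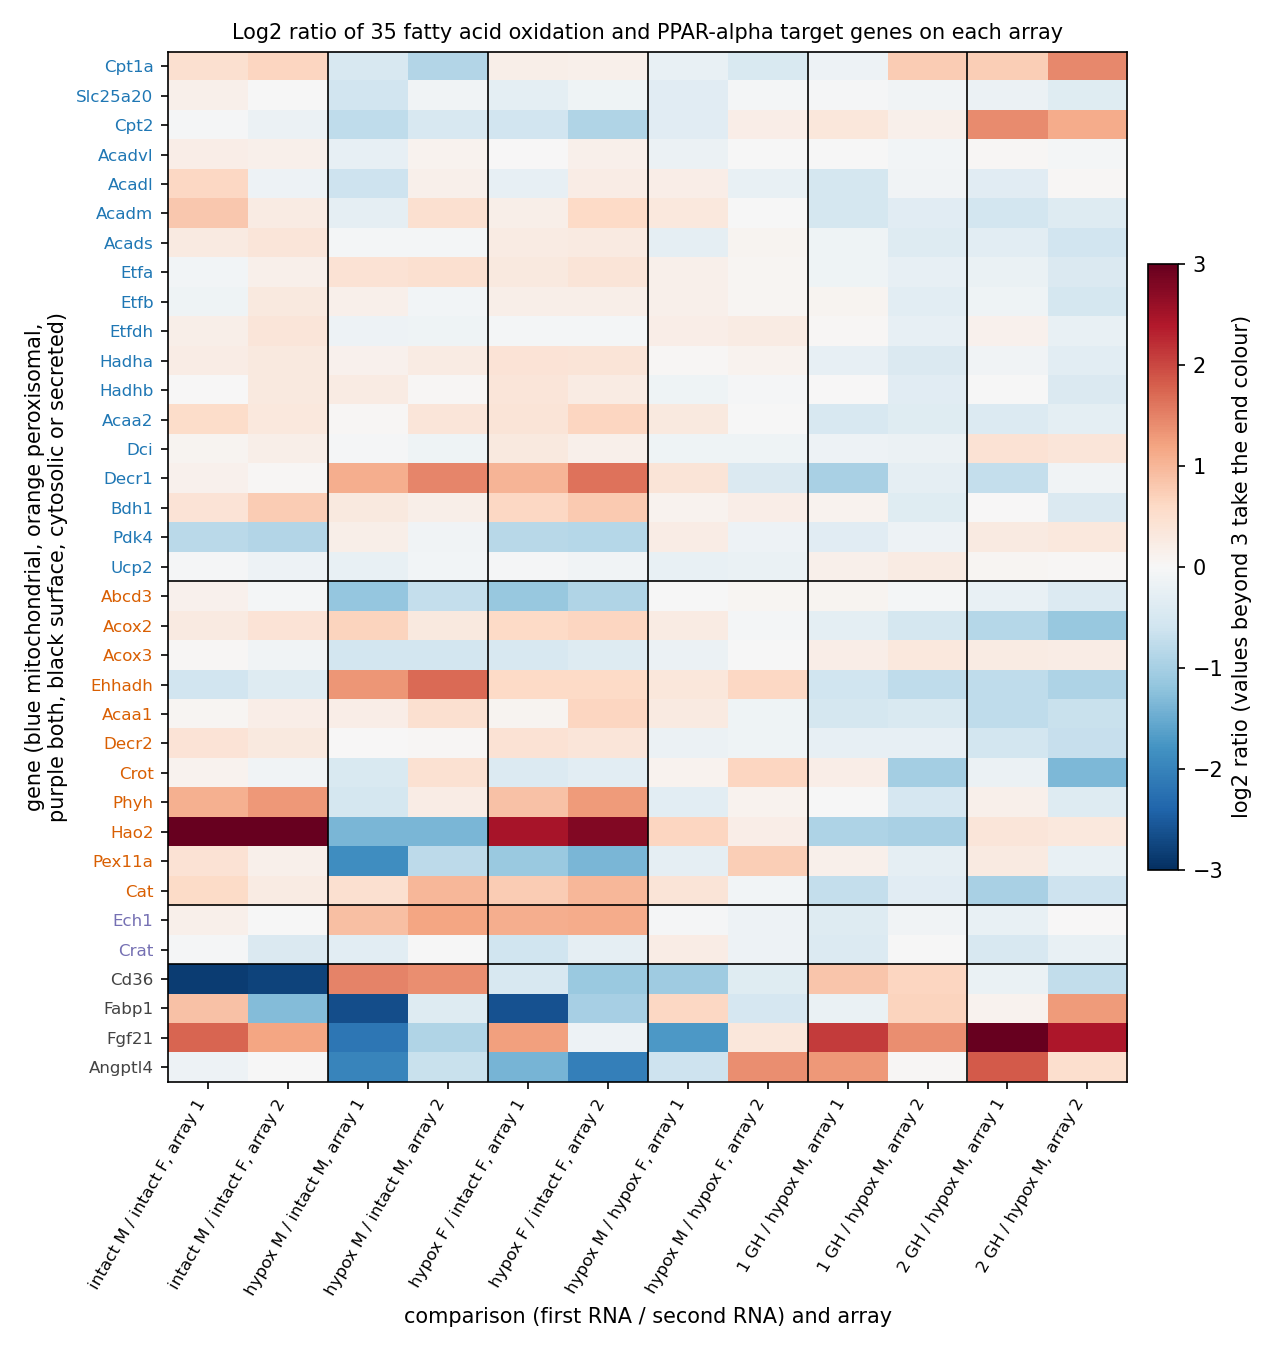
Log2 ratio of 35 genes (rows, grouped by compartment) on each of 12 arrays (columns, 2 per comparison), on a colour scale from -3 (blue) to 3 (red). Hao2 is darkest red in intact males over intact females (4.26 and 4.07) and Cd36 darkest blue (-2.84 and -2.78), while Fabp1 differs in shade between the 2 arrays of the same comparison.

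Sex differences in rats with a pituitary were read from intact males over intact females. Of the 35, 10 were higher in males and 4 lower, so that 40% were called against 15.5% of all probes (8.07% higher and 7.42% lower). The hydroxy acid oxidase Hao2 was 17.9-fold higher in males, the fatty acid translocase Cd36 was 7.03-fold lower, and the phytanoyl-CoA hydroxylase Phyh was 2.28-fold higher. No other called member reached 2-fold, a size called for 2.12% of all probes. The median log2 ratio was 0.16 over 18 mitochondrial genes (6 higher, 1 lower) and 0.30 over 11 peroxisomal genes (4 higher, 1 lower), against -0.01 over all probes. Without either array of this comparison 5 members were called.

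The same comparison in hypophysectomised rats asks what sex difference remained without the pituitary. Cd36 was the 1 member called, lower in males, or 2.86% of the 35 members against 0.949% of all probes called (0.53% higher and 0.419% lower), and 0 were higher by limma. At an unadjusted p under 0.05 the count was 9 of 35, 5 higher and 4 lower. The share of all probes at that threshold was not computed, so this count has no background and is not read as a sex difference. The authors' value table, tested with adjusted p as in the main fit, gave 0 calls. Median log2 ratios were -0.01 over mitochondrial and 0.08 over peroxisomal genes. With either array left out 0 members were called.

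Hypophysectomised animals were compared with intact animals of the same sex to show the change with pituitary removal. In males 9 members rose and 10 fell, 54.3% against 37.5% of all probes (19% higher and 18.5% lower). In females 17 rose and 9 fell, 74.3% against 36.3% of all probes (17.9% higher and 18.5% lower). The dienoyl-CoA reductase Decr1 and the dienoyl-CoA isomerase Ech1 rose over 2-fold in both sexes, while Fabp1 and the peroxisome proliferation factor Pex11a fell over 2-fold in both. A called change of at least 2-fold was found for 8 members in each sex, against 3.47% of all probes in males and 3.99% in females. The count in males was 12 without array 1, and in females 13 without array 2.

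The male and female comparisons share no RNA, and their calls are set side by side here. Their arrays share slides, the order of dyes and the fitted model, so the calls are not independent. Of the members, 8 rose in both sexes (Decr1, Ech1, Ehhadh, Cat, Acox2, Etfa, Acaa1 and Acaa2) and 6 fell in both (Fabp1, Pex11a, Abcd3, Cpt2, Acox3 and Crat). These 14 were 40% of the 35 members, against 24.7% of all probes tested in both sexes. As a share of calls they were 73.7% of the members called in males and 53.8% of those called in females, against 63.2% and 68.2% of the calls over all probes, so the share lay above that background in males and below it in females. Only Hao2 and Cd36 were called in opposite directions. Among peroxisomal genes 7 of 11 changed alike in both sexes, 87.5% of those called in males and 70% of those called in females. Among mitochondrial genes 4 of 18 did, 66.7% of those called in males and 36.4% of those called in females.

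**Figure D2:**
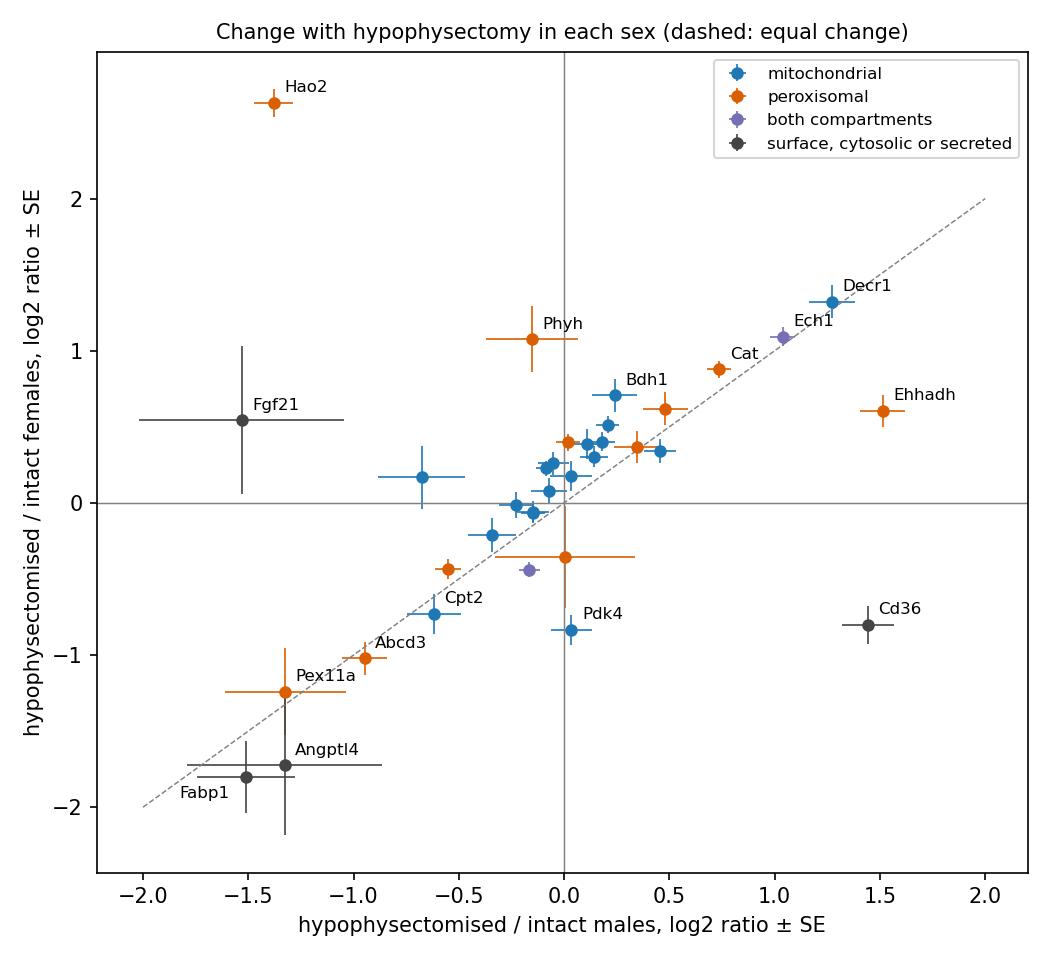
Log2 ratio ± SE of hypophysectomised over intact animals for each of 35 genes, males on the x axis and females on the y axis, with the dashed line at equal change. Decr1, Ech1, Cat, Abcd3 and Pex11a lie near the line, Hao2 (-1.38 in males, 2.63 in females) and Cd36 (1.44 and -0.80) lie in opposite quadrants.

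Sex dependence was tested from the change with hypophysectomy in males minus that in females. It was called for 13 of 35 members, 4 positive and 9 negative, or 37.1% against 13.5% of all probes (6.48% positive and 7.01% negative). The contrast is the mean of the male minus female change and of the hypophysectomised minus the intact male to female log2 ratio. It thus departs slightly from a subtraction of the printed changes. The count lay between 9 and 16 when single arrays were left out. For Hao2 the difference was -3.88 ± 0.09 and for Cd36 it was 2.17 ± 0.12, on the log2 scale. The fit treats the arrays of these comparisons as independent. Deviations of same-numbered arrays correlated from -0.49 to 0.86 between them, so the SE and adjusted p of this contrast may be too small.

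The GH comparisons ask which genes respond within hours when the hormone is given back to hypophysectomised males. After 1 injection 3 members rose and 13 fell, 45.7% against 14.3% of all probes (7.49% higher and 6.79% lower), and none of these changes reached 2-fold, a size called for 1.13% of all probes. After 2 injections 6 rose and 15 fell, 60% against 30.8% of all probes (15% higher and 15.8% lower). The hepatokine Fgf21 and the carnitine palmitoyltransferases Cpt2 and Cpt1a rose over 2-fold after 2 injections, a size of change called for 3.15% of all probes. Peroxisomal genes had median log2 ratios of -0.40 after 1 injection (1 rose, 6 fell) and -0.62 after 2 (2 rose, 5 fell), and mitochondrial genes -0.17 (1 rose, 5 fell) and -0.21 (3 rose, 8 fell), with 0.00 and -0.01 over all probes. The counts fell to 3 without array 1 and 2 without array 2 of the 1-injection comparison, and to 13 without array 1 and 9 without array 2 of the 2-injection comparison. Both GH comparisons were made against pools of untreated hypophysectomised males, and the labels do not assign these pools to arrays.

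The change after 2 injections minus that after 1 was tested as a contrast of the same model, in which both changes are read against untreated hypophysectomised males. Livers were taken 30, 60 or 90 min after the single injection, while the 2 injections were 3 or 4 h apart. The number of injections and the time since the first cannot be told apart. Each treatment was 1 pool on both arrays, so the test holds no variation between GH-treated pools. Of the members 4 were higher after 2 injections than after 1 and 3 lower, 20% against 10.4% of all probes (5.56% higher and 4.82% lower). Hao2, Cpt2, Dci and Pdk4 were higher after 2 injections, and Cd36, Acox2 and Decr2 were lower. Between 2 and 3 members were called when any 1 of these 4 arrays was left out.

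**Figure D3:**
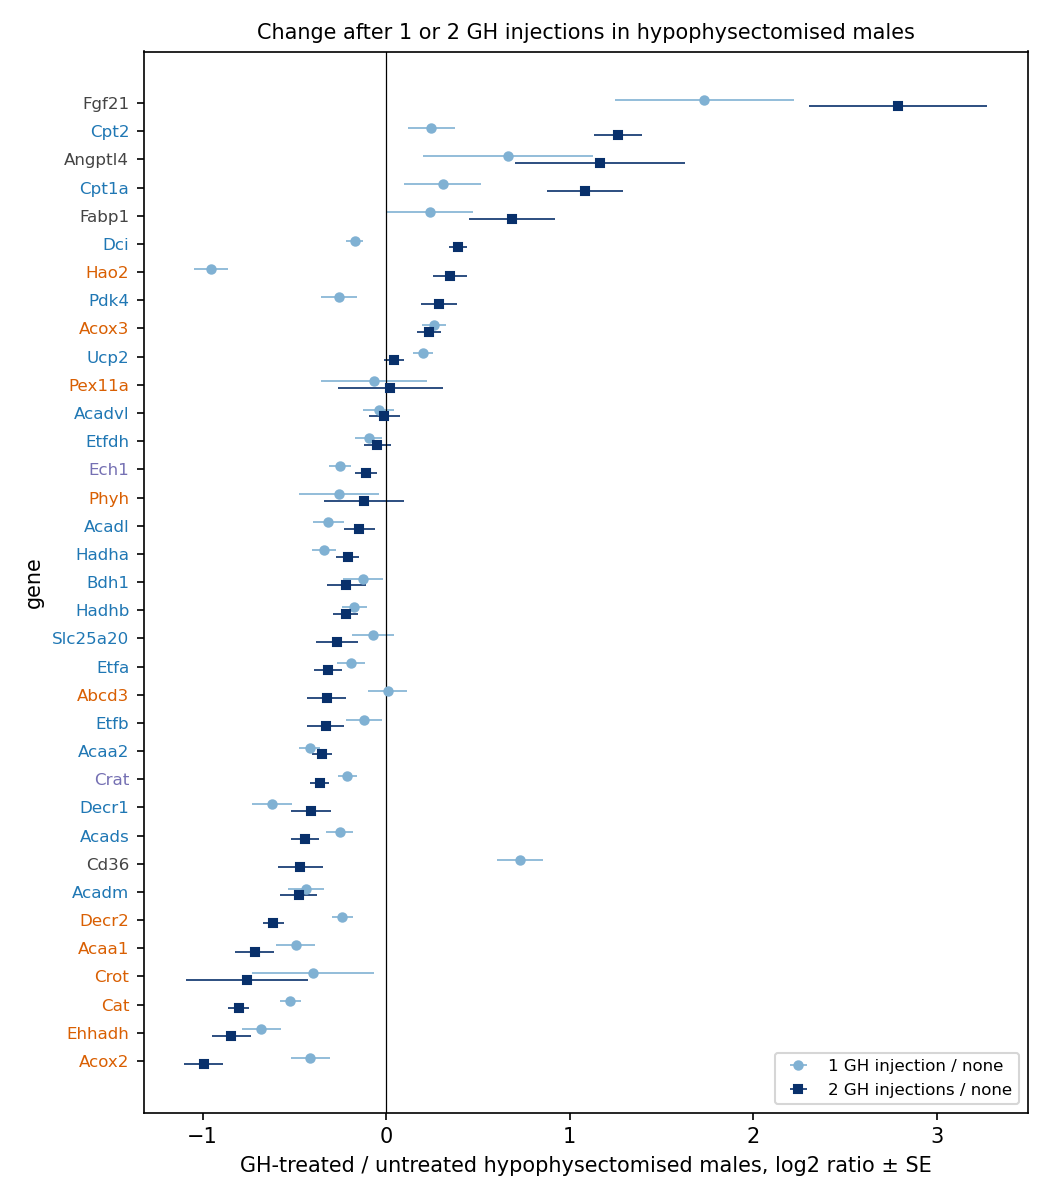
Log2 ratio ± SE of hypophysectomised males after 1 GH injection (light circles) or 2 (dark squares) over untreated hypophysectomised males, for 35 genes ordered by the value after 2 injections. Among called genes Fgf21 (2.79), Cpt2 (1.27) and Cpt1a (1.08) stand highest after 2 injections, and Angptl4, not called, also stands near the top. Most peroxisomal genes lie to the left of 0. Cd36 (0.73 and -0.47) and Hao2 (-0.95 and 0.35) lie on opposite sides of 0 in the 2 comparisons.

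Entry into mitochondria runs through Cpt1a, the rate-limiting acyltransferase of the outer membrane, the carnitine carrier Slc25a20, and Cpt2, which remakes acyl-CoA inside. Cpt2 stood at 1.41 and 1.12 on the 2 arrays of 2 GH injections, a log2 ratio of 1.27 ± 0.13 (2.40-fold, limma adjusted p = 0.000197). Cpt1a stood at 0.73 and 1.44, a ratio of 1.08 ± 0.21 (2.12-fold, adjusted p = 0.00465), and without array 2 it was 0.78 with an adjusted p of 0.126. Both genes were above 0 on both of these arrays. After 1 injection neither was called, with Cpt2 at 0.33 and 0.16 and Cpt1a at -0.15 and 0.76.

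The difference between 2 injections and 1 was 1.02 ± 0.18 for Cpt2 (limma adjusted p = 0.0127). It kept its size without any 1 of the 4 arrays (0.93 to 1.10) but was then not called (adjusted p from 0.0616 to 0.113). For Cpt1a the difference was 0.78 ± 0.29 and was not called (adjusted p = 0.146). In hypophysectomised males all 3 entry genes were below intact males (log2 ratios from -0.68 to -0.34), and in hypophysectomised females Cpt2 alone fell. None of the 3 was called between intact males and intact females, where Cpt1a stood at 0.48 and 0.65 (0.57 ± 0.21, limma adjusted p = 0.114).

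The core of mitochondrial beta-oxidation comprises the acyl-CoA dehydrogenases Acadvl, Acadl, Acadm and Acads, the electron carriers Etfa, Etfb and Etfdh, the trifunctional protein Hadha and Hadhb, and the thiolase Acaa2. Acadm, Acads, Etfdh, Hadha and Acaa2 were higher in intact males, with log2 ratios from 0.26 to 0.53. After hypophysectomy Etfa and Acaa2 rose in males (0.21 to 0.45), and Acadm, Acads, Etfa, Hadha, Hadhb and Acaa2 rose in females (0.26 to 0.51). No core gene fell in either sex.

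After 1 GH injection the core genes Acadl, Acadm, Hadha and Acaa2 fell (-0.44 to -0.31), and after 2 injections Acadm, Acads, Etfa, Etfb, Hadha, Hadhb and Acaa2 fell (-0.48 to -0.21). Acadvl, the very-long-chain dehydrogenase, was called in no comparison, with log2 ratios between -0.09 and 0.18. These changes were at most 1.44-fold. Hadha, whose promoter is shown above with that of Hadhb, had a second probe that gave the same direction but was not called between intact males and females or in either GH comparison, and was called higher in hypophysectomised males (0.35).

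Unsaturated chains need auxiliary enzymes before they can pass through the spiral, among them Decr1, which removes a double bond with NADPH, and the enoyl-CoA isomerase Dci. Decr1 stood at 1.08 and 1.46 in hypophysectomised over intact males, a ratio of 1.27 ± 0.11 (2.41-fold, limma adjusted p = 0.000104). In females it stood at 1.02 and 1.63, a ratio of 1.32 ± 0.11 (2.50-fold, adjusted p = 8.17e-05). All 4 arrays were above 1, and the sex difference in this change was -0.08 ± 0.11 and not called.

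After 1 GH injection Decr1 stood at -0.96 and -0.27, a ratio of -0.62 ± 0.11 (limma adjusted p = 0.0085), and after 2 at -0.72 and -0.10, a called ratio of -0.41. Both arrays were below 0 each time, but array 2 lay nearer 0. Without array 1 of the 1-injection comparison the ratio was -0.53 (adjusted p = 0.183) and without array 2 it was -0.71 (adjusted p = 0.0951). Dci rose in hypophysectomised females and after 2 injections (0.23 and 0.39), though centring arrays on the median in place of loess turned the latter to -0.11.

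Further mitochondrial genes were Bdh1, which makes the ketone body hydroxybutyrate, Pdk4, the kinase that shuts off pyruvate entry when fat is burned, and the uncoupling protein Ucp2. Pdk4 stood at -0.82 and -0.88 in intact males over females, a ratio of -0.85 ± 0.10 (1.80-fold lower, limma adjusted p = 0.000768). Pdk4 fell in hypophysectomised females to a like extent (-0.82 and -0.84) and was not called in hypophysectomised males (0.18 and -0.11). The sex dependence of its change was called at 0.88 ± 0.10.

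Bdh1 was higher in intact males and rose in hypophysectomised females (0.59 to 0.71), with a called sex dependence of -0.45 ± 0.11. Ucp2 was called only after 1 GH injection (0.20). Macrophages also express Ucp2, and 7 of 8 macrophage markers were higher after 1 injection, with a median log2 ratio of 0.29 and summed signals of 95619 and 97831 against 73546 and 78641 in untreated animals, and their part in the Ucp2 value was not tested.

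The largest sex difference among the members belonged to Hao2, a peroxisomal oxidase of hydroxy acids. It stood at 4.26 and 4.07 in intact males over intact females, a ratio of 4.16 ± 0.09 (17.9-fold, limma adjusted p = 1.28e-07). After hypophysectomy it stood at -1.38 on both arrays in males, a ratio of -1.38 ± 0.09 (2.60-fold lower, adjusted p = 2.98e-05). In females it stood at 2.47 and 2.79, a ratio of 2.63 ± 0.09 (6.19-fold higher, adjusted p = 1.14e-06).

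Hao2 therefore fell in males and rose in females, and the arrays of the 2 sexes did not overlap. The sex dependence of its change was -3.88 ± 0.09 (limma adjusted p = 3.20e-07), and it was called under every alternative run. Between hypophysectomised males and females Hao2 stood at 0.64 and 0.20 and was not called (0.42 ± 0.09, adjusted p = 0.095).

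Hao2 lay on opposite sides of 0 in the 2 GH comparisons. After 1 injection it stood at -0.94 and -0.97, a ratio of -0.95 ± 0.09 (1.94-fold lower, limma adjusted p = 0.000581). After 2 injections it stood at 0.37 and 0.33, a called ratio of 0.35, which median centring turned to -0.18. The difference between 2 injections and 1 was 1.30 ± 0.13 (limma adjusted p = 0.00126) and was positive under every alternative run. Under median centring it was not called (0.89, limma adjusted p = 0.999).

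Phyh starts the alpha-oxidation of phytanic acid, a branched fatty acid. It stood at 1.07 and 1.31 in intact males over females, a ratio of 1.19 ± 0.22 (2.28-fold, limma adjusted p = 0.00798), and at 0.87 and 1.28 in hypophysectomised over intact females, a ratio of 1.07 ± 0.22 (2.11-fold, adjusted p = 0.00628). In hypophysectomised males the arrays fell on opposite sides of 0 (-0.52 and 0.22). The sex dependence was -1.26 ± 0.22 (adjusted p = 0.00707). The sex difference was not called without array 1 (1.27, adjusted p = 0.100) or array 2 (1.10, adjusted p = 0.145), nor the change in females without array 2 (0.77, adjusted p = 0.134). Neither GH comparison called Phyh.

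**Figure D4:**
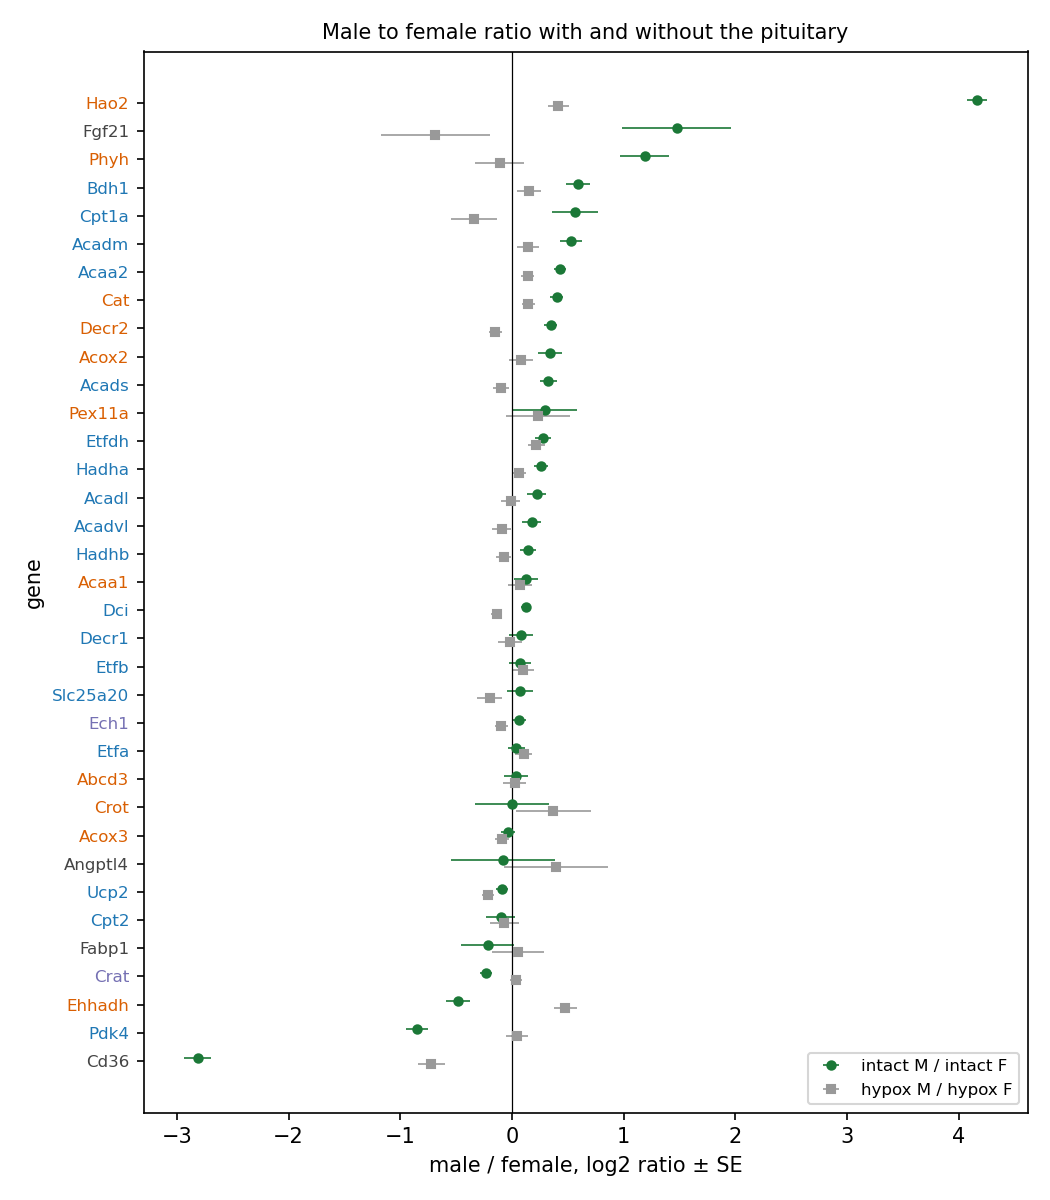
Male over female log2 ratio ± SE of 35 genes in intact rats (green circles) and in hypophysectomised rats (grey squares), ordered by the value in intact rats. Hao2 goes from 4.16 to 0.42, Phyh from 1.19 to -0.11 and Cd36 from -2.81 to -0.72, and the grey squares other than those of Fgf21 and Cd36 lie within 0.5 of 0.

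Peroxisomal beta-oxidation begins with the acyl-CoA oxidases, of which Acox2 and Acox3 act on branched chains, and goes on through the bifunctional enzyme Ehhadh and the thiolase Acaa1. Ehhadh stood at 1.32 and 1.71 in hypophysectomised over intact males, a ratio of 1.51 ± 0.11 (2.85-fold, limma adjusted p = 3.75e-05). In females it rose less (0.61 and 0.60), and the sex dependence was called at 0.93 ± 0.11. It was lower in intact males than in intact females (-0.48).

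After 1 GH injection Ehhadh stood at -0.60 and -0.76, a ratio of -0.68 ± 0.11 (limma adjusted p = 0.00516), and after 2 at -0.76 and -0.93, also called. Both arrays were below 0 in each. Without array 1 of the 1-injection comparison it was -0.73 (adjusted p = 0.0849) and without array 2 it was -0.63 (adjusted p = 0.124).

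Acox2, which also shortens the side chain of bile acid precursors, stood at -0.85 and -1.14 after 2 GH injections, a ratio of -0.99 ± 0.11 (1.99-fold lower, limma adjusted p = 0.000253). It also fell after 1 injection (-0.29 and -0.53), and the difference between the 2 was -0.58 ± 0.15 (adjusted p = 0.0481). That difference was not called without any 1 of the 4 arrays (-0.69 to -0.47, adjusted p from 0.136 to 0.280). Acox2 and Acaa1 rose after hypophysectomy in both sexes (0.34 to 0.62) and fell after both GH treatments (-0.99 to -0.41). Acox3 went the other way, falling in both sexes (-0.55 and -0.44) and rising after both treatments (0.26 and 0.23). The hypophysectomised and GH comparisons in males share the untreated hypophysectomised group, so these opposite signs were not tested.

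The remaining peroxisomal genes were Decr2, the peroxisomal dienoyl-CoA reductase, catalase (Cat), the acyl-CoA transporter Abcd3, the membrane protein Pex11a, which drives peroxisome division, and the octanoyltransferase Crot. Cat rose after hypophysectomy in both sexes and was higher in intact males (0.40 to 0.88), and it fell after 1 and 2 GH injections (-0.52 and -0.80). Decr2 was higher in intact males and in hypophysectomised over intact females (0.35 to 0.40), with a sex dependence of -0.44 ± 0.06, and it fell after GH (-0.24 and -0.62). Crot was called in no comparison and differed between the arrays of a pair by up to 1.22 (0.21 and -1.01 after 1 injection).

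Abcd3 stood at -1.14 and -0.90 in hypophysectomised over intact females, a ratio of -1.02 ± 0.11 (2.03-fold lower, limma adjusted p = 0.00026). In males it stood at -1.17 and -0.73, also called. Pex11a stood at -1.85 and -0.80 in males, a ratio of -1.32 ± 0.29 (2.50-fold lower, adjusted p = 0.0083), and at -1.12 and -1.36 in females, a ratio of -1.24 ± 0.29 (2.36-fold lower, adjusted p = 0.0114). The second Pex11a probe was also called lower, but by less than 2-fold (-0.83 in males and -0.91 in females). All arrays of both genes were below 0, and neither gene was called for sex or for GH. Pex11a was -0.60 without array 1 of the male comparison (adjusted p = 0.131) and -2.04 without array 2 (adjusted p = 0.00106), and in females its adjusted p was 0.109 without array 1 and 0.124 without array 2.

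Ech1 and Crat act in both compartments. Ech1, which prepares certain unsaturated chains for Decr1, stood at 0.90 and 1.18 in hypophysectomised over intact males, a ratio of 1.04 ± 0.06 (2.05-fold, limma adjusted p = 1.46e-05). In females it stood at 1.08 and 1.10, a ratio of 1.09 ± 0.06 (2.13-fold, adjusted p = 1.08e-05). The 4 arrays lay within 0.28 of each other, and the sex dependence was not called. It fell after 1 GH injection (-0.25) and was not called after 2 (-0.11). Crat was lower in every comparison that called it, from -0.44 to -0.16, and was not called between hypophysectomised males and females.

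Cd36 brings fatty acids into the cell and is expressed by hepatocytes, macrophages, endothelium and fat cells. It stood at -2.84 and -2.78 in intact males over females, a ratio of -2.81 ± 0.12 (7.03-fold lower, limma adjusted p = 3.08e-06). In hypophysectomised over intact males it stood at 1.49 and 1.39, a ratio of 1.44 ± 0.12 (2.72-fold higher, adjusted p = 0.000101). In females it fell (-0.48 and -1.12, called at -0.80).

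The sex dependence of the Cd36 change was 2.17 ± 0.12 (limma adjusted p = 2.42e-05), with all male arrays above 0 and all female arrays below. Between hypophysectomised males and females it stood at -1.07 and -0.37, a ratio of -0.72 ± 0.12 (adjusted p = 0.0436). This was not called without array 1 (-0.52, adjusted p = 0.339) or array 2 (-0.92, adjusted p = 0.136), nor with the authors' value table (-0.73, adjusted p = 0.0935) or with the replicate number as a block (adjusted p = 0.0881).

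After 1 GH injection Cd36 stood at 0.82 and 0.64, a ratio of 0.73 ± 0.12 (limma adjusted p = 0.00709), and after 2 at -0.19 and -0.74, a called ratio of -0.47. The difference between 2 injections and 1 was -1.20 ± 0.17 (adjusted p = 0.00554). The value after 1 injection was not called without array 1 (0.85, adjusted p = 0.0757) or array 2 (0.61, adjusted p = 0.163). The difference was not called without array 2 of the 1-injection comparison (-1.08, adjusted p = 0.061) or array 2 of the 2-injection comparison (-1.09, adjusted p = 0.0523).

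Markers of other cells that express Cd36 moved with it in part. Of 8 macrophage markers with a probe, all well above background, 7 were lower in intact males (median -0.28, range -0.37 to -0.23), with summed signals of 70282 and 71029 in males and 85321 and 90189 in females. After 1 GH injection 7 of 8 were higher (median 0.29), after 2 injections the median was 0.00 (range -0.15 to 0.10), and after hypophysectomy 2 rose in males and 1 in females. Between hypophysectomised males and females 4 of 8 were lower in males (median -0.28, range -0.44 to -0.17), and 4 of 8 were lower after 2 injections than after 1 (median -0.27), both comparisons in which Cd36 was also lower. Cd36 fell in hypophysectomised females, where the macrophage median was 0.11 and 5 of 9 endothelial markers rose (median 0.26). In hypophysectomised males, where Cd36 rose, 6 of 9 endothelial markers rose and 1 fell (median 0.22). Cd36 also fell after 2 injections, where the macrophage median was 0.00. Of 9 endothelial markers 2 were lower in intact males (median -0.09). In intact males over females 1 of 3 fat cell markers tested was lower (median -0.75, range -1.37 to -0.43). None was called in the other comparisons, and after hypophysectomy the medians were 0.70 in males (2 tested) and -0.12 in females (3 tested). The fat cell markers Plin1 and Lep were not well above background, and Adipoq was not called where it was tested. The part of these cells in the Cd36 values was not tested, and in bulk tissue fewer cells of a type and less RNA per cell cannot be told apart.

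Fabp1, the abundant fatty acid binding protein of hepatocyte cytosol whose promoter holds the PPAR element shown above, stood at -2.65 and -0.38 in hypophysectomised over intact males, a ratio of -1.51 ± 0.23 (2.85-fold lower, limma adjusted p = 0.00172). In females it stood at -2.61 and -0.99, a ratio of -1.80 ± 0.23 (3.49-fold lower, adjusted p = 0.00075). All 4 arrays were below 0, but array 1 was lower by 1.62 or more. Its dye coefficient of 0.77 was the largest of the 35 genes, and without a dye term neither fall was called (adjusted p = 0.124 in males and 0.0766 in females). Between intact males and females its arrays lay on opposite sides of 0 (0.87 and -1.30). After 2 GH injections it stood at 0.11 and 1.27 and was not called (0.69 ± 0.23, adjusted p = 0.0575), while its second probe was called (0.75, adjusted p = 0.0383).

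**Figure D5:**
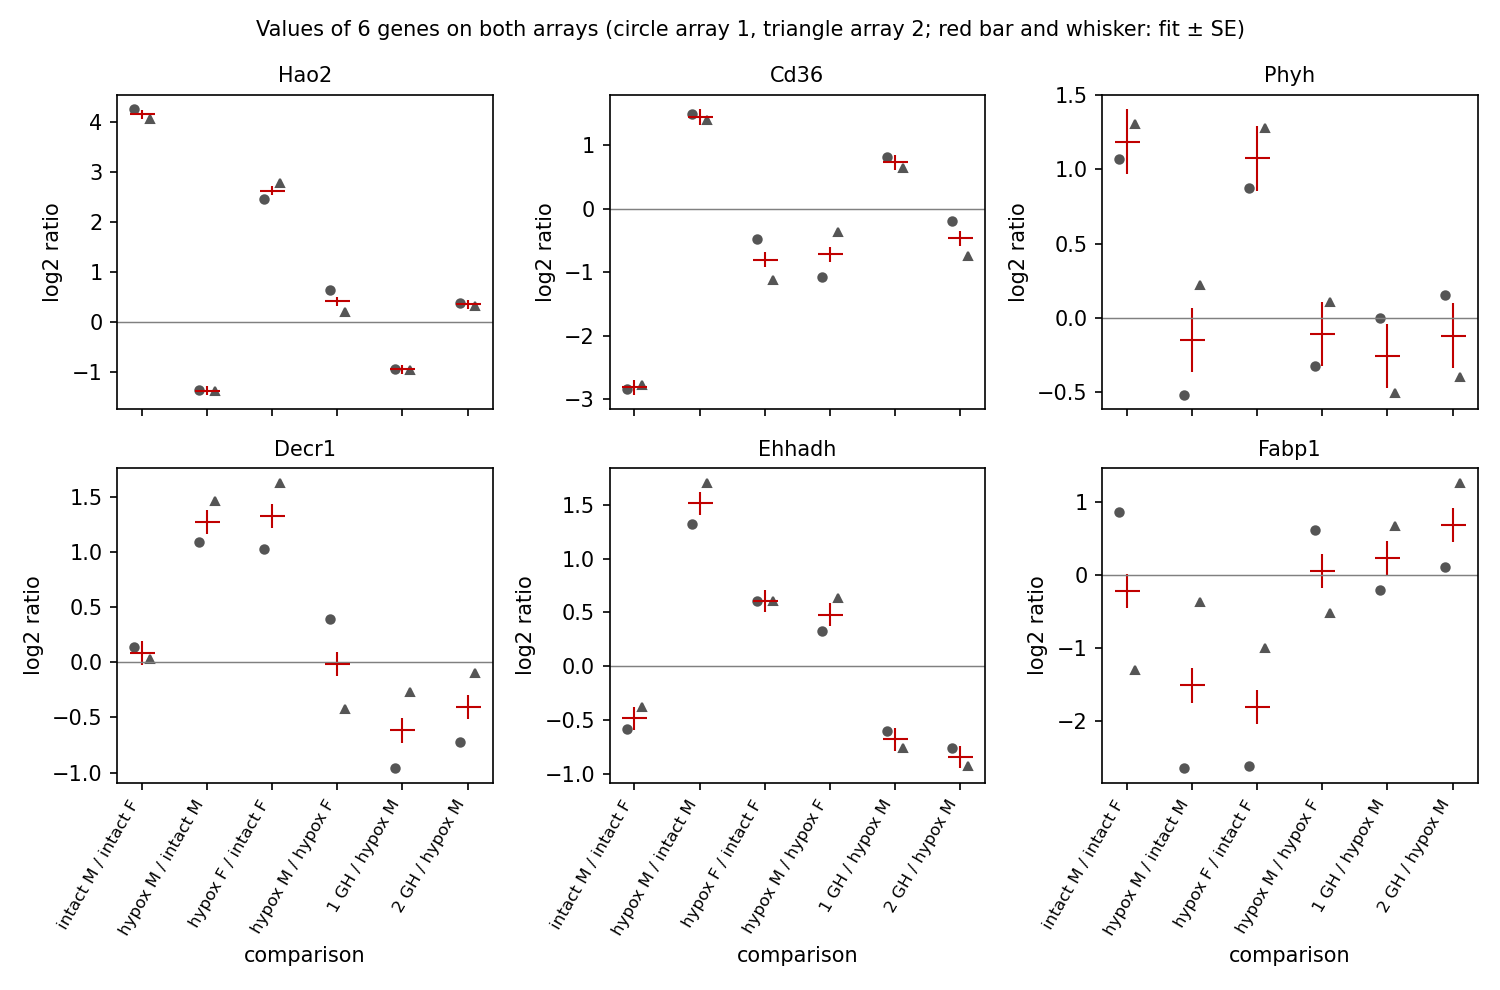
Log2 ratio on array 1 (circle) and array 2 (triangle) of each comparison, with the fitted value ± SE in red, for 6 genes; each panel has its own y axis. Hao2 differs between the arrays of a pair by at most 0.44, while Fabp1 differs between the arrays of a pair by 0.88 to 2.27.

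Fgf21 and Angptl4 are secreted PPAR-alpha targets, a hormone of the fasting response and an inhibitor of lipoprotein lipase. Fgf21 stood at 3.14 and 2.44 after 2 GH injections, a ratio of 2.79 ± 0.49 (6.92-fold, limma adjusted p = 0.00294). After 1 injection it stood at 2.09 and 1.38 and was not called (1.74 ± 0.49, adjusted p = 0.0503). All 4 GH arrays were above 1, and the difference between 2 injections and 1 was not called (1.05 ± 0.69). Without array 1 the value after 2 injections was 2.67 with an adjusted p of 0.0656.

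In hypophysectomised over intact males Fgf21 stood at -2.17 and -0.89, a ratio of -1.53 ± 0.49 (2.89-fold lower, limma adjusted p = 0.0391). The ratio was -0.46 without array 1 (adjusted p = 0.559) and -2.60 without array 2 (adjusted p = 0.00693), and the fall was not called with the authors' value table (adjusted p = 0.0637) or with the replicate number as a block (adjusted p = 0.0594). In females the arrays lay on opposite sides of 0 (1.23 and -0.15). The sex dependence was -2.12 ± 0.49 (adjusted p = 0.025), and it was not called without array 1 of the comparison in females (adjusted p = 0.104), of hypophysectomised males with females (adjusted p = 0.0635) or of intact males with females (adjusted p = 0.106), nor with the value table (adjusted p = 0.0512).

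Angptl4 stood at -1.40 and -2.05 in hypophysectomised over intact females, a ratio of -1.72 ± 0.46 (3.30-fold lower, limma adjusted p = 0.0209). It was not called without array 1 (-1.71, adjusted p = 0.177) or array 2 (-1.74, adjusted p = 0.150). In males it stood at -1.99 and -0.67 and was not called (-1.33 ± 0.46, adjusted p = 0.0534). Both arrays were above 0 in each GH comparison, with no call.

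A further list held 42 genes of the same pathways that are not among the members, and 35 of them were tested. Between intact males and females 7 were higher and 4 lower (31.4%, against 15.5% of all probes). After hypophysectomy 4 rose and 7 fell in males (31.4%, below the 37.5% of all probes), and 8 rose and 9 fell in females (48.6%, against 36.3%). After 1 GH injection 5 rose and 6 fell (31.4%, against 14.3%), and after 2 injections 2 rose and 10 fell (34.3%, near the 30.8% of all probes). Ppara itself was called once, higher in hypophysectomised females (0.32).

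Among these, Vnn1, a pantetheinase regulated by PPAR-alpha, stood at 2.73 and 2.45 in intact males over females, a ratio of 2.59 ± 0.13 (limma adjusted p = 8.06e-06), and at 2.94 and 2.33 in hypophysectomised over intact females, a ratio of 2.64 ± 0.13 (adjusted p = 6.78e-06). Abcd2, a peroxisomal transporter of very long acyl-CoAs, stood at -2.29 and -2.30 in intact males over females, a ratio of -2.30 ± 0.06 (adjusted p = 2.21e-07). It was also lower between hypophysectomised males and females (-0.66 ± 0.06, adjusted p = 0.00314), where it was the 1 gene of this list called. Vnn1 was thus higher in males and Abcd2 higher in females on every array of the intact comparison.

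The acyl-CoA synthetase Acsl4 stood at 2.28 and 1.66 after 1 GH injection, a ratio of 1.97 ± 0.19 (limma adjusted p = 0.00056). After 2 injections it stood at 2.92 and 2.31, a ratio of 2.61 ± 0.19 (adjusted p = 3.54e-05). It fell after hypophysectomy in males (-1.37) and females (-1.83). The alpha-oxidation lyase Hacl1 rose after 2 injections (1.28 ± 0.07), and the transporter Slc27a2 rose in hypophysectomised males (1.15 ± 0.07) with arrays at 0.51 and 1.78.

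Markers of other liver cells changed beside the members. After hypophysectomy 3 of 5 bile duct markers rose in each sex, Epcam by 1.82 ± 0.14 in males and 1.75 ± 0.14 in females. The erythroid genes Hbb and Alas2 fell in both sexes and were higher after 1 and 2 GH injections. Of 10 hepatocyte markers 4 were higher in intact males. After hypophysectomy 3 of them fell in males, while in females 3 rose and 1 fell, and the sex dependence was called negative for 4 (median -0.58). After 1 and 2 GH injections 3 and 5 rose. In every comparison the RNA with the higher summed hepatocyte signal differed between the 2 arrays, where the dyes were exchanged. In intact males against females it was 2.47e+06 against 1.03e+06 on array 1 and 1.52e+06 against 1.98e+06 on array 2. After hypophysectomy 4 of 8 lymphocyte markers tested rose in each sex, as did 6 of 9 endothelial markers in males and 5 in females, and of 7 stellate cell markers 3 rose and 1 fell in males, and 1 rose and 1 fell in females. Of the endothelial markers 1 also fell in males. Their part in the members' values was not tested.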

How the data were processed

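Liver RNA was read on 12 arrays with 2 colours (Alexa 647 and 555). Per the file headers, the deposited scanner files hold mean and background intensity per spot from Feature Extraction 9.1.3.1, with flags and processed log10 ratios; the authors' value table holds log2 ratios of channel 2 over channel 1, as found from its values. Intensities were corrected with normexp (offset 50) and each array's ratios normalised by loess with limma 3.58.1 (R 4.3.3). Control spots had no weight, outlying spots were left out, the dyes in the labels set each ratio's direction (channel 2 over 1), and spots of a probe were averaged. Between 58.4% and 71.1% of probes were well above background per channel, and the number of arrays limits precision.

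Testing required at least 1 of the RNAs to be well above background on each array of the pair, which 29008 probes met in at least 1 comparison. One limma model covered 12 arrays with 6 comparison coefficients and a dye coefficient (5 residual degrees of freedom). The procedure was also run on simulated data with independent noise on each array. That run cannot show how calls behave where arrays are correlated. Values were printed per array for members called and changed at least 2-fold, or, if fewer than 4 were, the 4 called with the largest change; of the further pathway list up to 4 per comparison could be named. Array values of other members were printed as context. Members and lists were chosen with earlier results of these data known. Alternatives covered background, normalisation, filter, outliers, dye, block, coefficients, probe and single arrays. The labels do not say whether a replicate number marks the same pool, and without GH it coincides with the slide. Deviations of same-numbered arrays correlated from -0.49 to 0.86 between comparisons without GH, where a pairing by number cannot be told apart from the slide. Where a GH comparison was involved they ran from -0.68 to 0.74, although all GH arrays share 1 slide. Whether pools were shared by number was not tested, and the number was not used as a block in the reported fit. Of 42 further pathway genes 36 had a probe. Marker lists covered hepatocytes, macrophages, endothelium, fat cells, lymphocytes, stellate cells, bile duct and erythroid cells. Promoters came from RefSeq.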

Additional observations from a re-analysis of the deposited data

Results flagged for a closer look

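The change with hypophysectomy differed between males and females, by a test of the difference itself, for 13 members. Values are those of the sex dependence contrast described above, on the log2 scale, and its adjusted p may be too small for the reason given there. The contrast was negative for Hao2 (-3.88), Fgf21 (-2.12), Phyh (-1.26), Cpt1a (-0.88), Bdh1 (-0.45), Decr2 (-0.44), Acads (-0.37), Acaa2 (-0.30) and Dci (-0.29). It was positive for Cd36 (2.17), Ehhadh (0.93), Pdk4 (0.88) and Crat (0.27).

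The change after 2 GH injections differed from that after 1, by the same kind of test, for 7 members. It was higher for Hao2 (1.30), Cpt2 (1.02), Dci (0.56) and Pdk4 (0.54), and lower for Cd36 (-1.20), Acox2 (-0.58) and Decr2 (-0.38). The number of injections and the time since the first cannot be told apart, and each treatment was 1 pool.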

How the results depend on the processing

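Of 557 recomputed values of the 37 results chosen by the naming rule, 463 kept their direction and call, 94 kept the direction without the call, and 0 reversed. Outside these 37, the called rises of Hao2 (0.35) and Dci (0.39) after 2 GH injections turned to -0.18 and -0.11 under median centring. Median centring in place of loess ended most calls: 2, 0, 1, 0, 0 and 0 members were called in the order intact sex difference, hypophysectomy in males, in females, hypophysectomised sex difference, 1 and 2 GH injections, with 1 for sex dependence and 0 for 2 injections against 1, where the reported counts were 14, 19, 26, 1, 16, 21, 13 and 7. Calls over all probes fell as well, to 261, 345, 370, 7, 0, 75, 118 and 0 in the same order. In the main fit they were 3983, 9737, 8836, 247, 3764, 8773, 3218 and 2721. Median centring moved the median of all probes by -0.13, 0.10 and -0.11 in the intact sex difference, males and 2 injections. The share of higher calls went from 50.7% to 35.1% in males and from 49.2% to 38.6% in females. Without a dye term 8, 0, 5 and 13 members were called for the intact and hypophysectomised sex differences and for 1 and 2 injections. Calls over all probes were then 2600, 83, 2106 and 6557. Fitting only a comparison's own arrays gave 12 for males, 0 for the hypophysectomised sex difference, 4 and 8 for 1 and 2 injections, 7 for sex dependence and 1 for 2 against 1. For the hypophysectomised sex difference the processed log ratio, the value table and no background correction gave 0, and 1 coefficient per RNA gave 3. Over all probes these settings gave 115, 113, 393 and 1014 calls, against 247 in the main fit. With the replicate number as a block the counts were 13, 16, 26, 0, 14, 18, 12 and 6 in the order above. Over all probes they were 3557, 9001, 8150, 143, 3196, 8224, 2775 and 2231. Leaving out 1 array gave 5 to 5, 12 to 18, 13 to 21, 0 to 0, 2 to 3, 9 to 13, 9 to 16 and 2 to 3. Calls over all probes were not counted with an array left out or with only a comparison's own arrays, so those member counts have no background.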

Other observations

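Of the 35 members 7 had a second probe, and in 5 of 56 comparisons of probes the calls differed, 4 of them for Hadha and 1 for Fabp1. No gene had called values of opposite sign. Sums of the 4 ratios around the loop of intact and hypophysectomised RNAs, which should be near 0, had a median absolute value of 0.0609 over the members and 0.0557 over all probes, and the largest among members was that of Hao2 (-0.26).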
